A study of Mus musculus with 4 samples.

Results

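The BTB zinc finger family of the mouse was described by the H3K36me3 peaks that carry a Zbtb gene name. Members were all names that begin with Zbtb followed by a digit in the authors' peak annotation, and 27 of the 12987 gene names there met that rule. The peaks come from forebrain neural progenitor cells of C57BL/6 embryos at embryonic day 13, where the mark was located by immunoprecipitating and sequencing chromatin (ChIP-seq). The forebrains carried either a brain-specific deletion of the histone variant gene H2A.z1 (H2A.z1cKO, here cKO) or the wild-type gene (WT). The Cre driver, the number of embryos per library and their litters are not given in the sources used here. Each genotype is represented by a single ChIP library called against an input library, so every contrast below sets 1 library beside another, without a replicate check and without a p-value. Fewer marked cells and less mark per cell cannot be told apart in such bulk chromatin. All coordinates are on mm10.

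Proteins of this family join an amino-terminal BTB domain, through which they pair with each other and recruit corepressors such as NCOR and BCOR or the ubiquitin ligase scaffold CUL3, to a carboxy-terminal array of zinc fingers that reads DNA. Several are known regulators of brain and blood development. H3K36me3 is written by SETD2 during transcription elongation and marks the bodies of transcribed genes rather than their promoters.

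The rule also takes in Zbtb8os, a gene named for lying opposite Zbtb8 that encodes archease, a cofactor of tRNA ligation, and not a BTB protein. In the RefSeq gene table (GRCm38.p6) 42 symbols met the same pattern, of which 41 were protein-coding and 1, Zbtb11os1, was a long noncoding RNA. The 15 symbols that named no peak were Zbtb4, Zbtb5, Zbtb7b, Zbtb7c, Zbtb8a, Zbtb8b, Zbtb11, Zbtb11os1, Zbtb12, Zbtb16, Zbtb26, Zbtb32, Zbtb38, Zbtb40 and Zbtb42.

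The start regions of 4 genes are shown first, because they mark where H3K36me3 peaks were not found. Each window runs from 250 bases before to 50 bases after a RefSeq start (GRCm38.p6), 5′ to 3′ on the strand of the gene, and capitals mark CpG dinucleotides. Zbtb49 (chr5:38220405-38220704, minus strand), Zbtb17 (chr4:141444423-141444722, plus strand) and Zbtb39 (chr10:127739280-127739579, plus strand) carried peaks further downstream. Zbtb32 (chr7:30598860-30599159, minus strand), a gene of lymphocytes, carried none in either library.
Zbtb49: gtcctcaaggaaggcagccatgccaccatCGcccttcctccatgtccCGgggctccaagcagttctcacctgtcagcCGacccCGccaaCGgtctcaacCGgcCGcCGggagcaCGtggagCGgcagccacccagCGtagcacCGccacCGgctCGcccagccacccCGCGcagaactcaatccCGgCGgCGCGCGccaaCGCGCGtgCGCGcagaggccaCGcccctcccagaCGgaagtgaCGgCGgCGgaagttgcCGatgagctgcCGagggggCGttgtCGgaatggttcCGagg
Zbtb17: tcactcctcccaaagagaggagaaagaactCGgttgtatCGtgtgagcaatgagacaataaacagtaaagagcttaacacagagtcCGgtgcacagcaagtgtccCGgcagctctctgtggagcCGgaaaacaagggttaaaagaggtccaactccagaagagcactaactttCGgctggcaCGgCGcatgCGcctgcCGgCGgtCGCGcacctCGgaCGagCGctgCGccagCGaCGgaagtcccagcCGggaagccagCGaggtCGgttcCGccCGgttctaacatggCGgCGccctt
Zbtb39: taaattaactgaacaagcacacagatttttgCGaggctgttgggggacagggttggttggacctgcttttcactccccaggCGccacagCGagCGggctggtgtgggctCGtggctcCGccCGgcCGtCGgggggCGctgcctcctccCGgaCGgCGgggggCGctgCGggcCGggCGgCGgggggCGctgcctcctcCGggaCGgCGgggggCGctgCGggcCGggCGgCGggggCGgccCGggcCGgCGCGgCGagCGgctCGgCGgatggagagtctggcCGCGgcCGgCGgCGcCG
Zbtb32: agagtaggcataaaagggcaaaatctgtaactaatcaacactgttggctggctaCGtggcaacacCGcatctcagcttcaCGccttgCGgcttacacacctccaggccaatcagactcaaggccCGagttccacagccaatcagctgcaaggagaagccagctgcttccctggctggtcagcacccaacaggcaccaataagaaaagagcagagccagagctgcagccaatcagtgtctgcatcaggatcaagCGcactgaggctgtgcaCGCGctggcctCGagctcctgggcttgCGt
The windows held 36 CpG in Zbtb49, 26 in Zbtb17, 42 in Zbtb39 and 10 in Zbtb32. Of 50 Zbtb windows from 37 genes, 0 were overlapped by a peak in cKO and 0 in WT. Among 32801 windows of other genes the overlapped share was 1.26% in cKO and 0.338% in WT, so 0 of 50 lies close to what such windows show in general. Taking for each gene the window with most CpG, the median was 29.5 CpG in the 30 Zbtb genes with a cKO peak over the body (1 to 56) and 17.0 in the 7 without (8 to 41). The ranges overlapped widely, and the 7 include the noncoding Zbtb11os1. The median over 26988 other genes was 8.0, but that set also holds noncoding genes, so it is not a like comparison.

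Zbtb gene names carried more and longer peaks in cKO. The cKO list held 142 non-intergenic peaks under 27 Zbtb names, with a summed length of 101982 bp, and the WT list held 53 peaks under 20 names, with 21241 bp. The ratio of summed length was 4.80, beside 5.18 for all other named genes, and the ratio of peak numbers was 2.68, beside 2.58. Mean peak length was 718 bp in the cKO list and 401 bp in the WT list. The family thus had a ratio of length slightly under that of the other genes in the same 2 libraries. ChIP depth was similar, at 32927164 ChIP tags in cKO and 31984670 in WT. Input tags numbered 35026817 in cKO and 38500353 in WT. The complete lists held 95750 peaks in cKO and 36820 in WT, so the excess was not limited to Zbtb names.

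**Figure D1:**
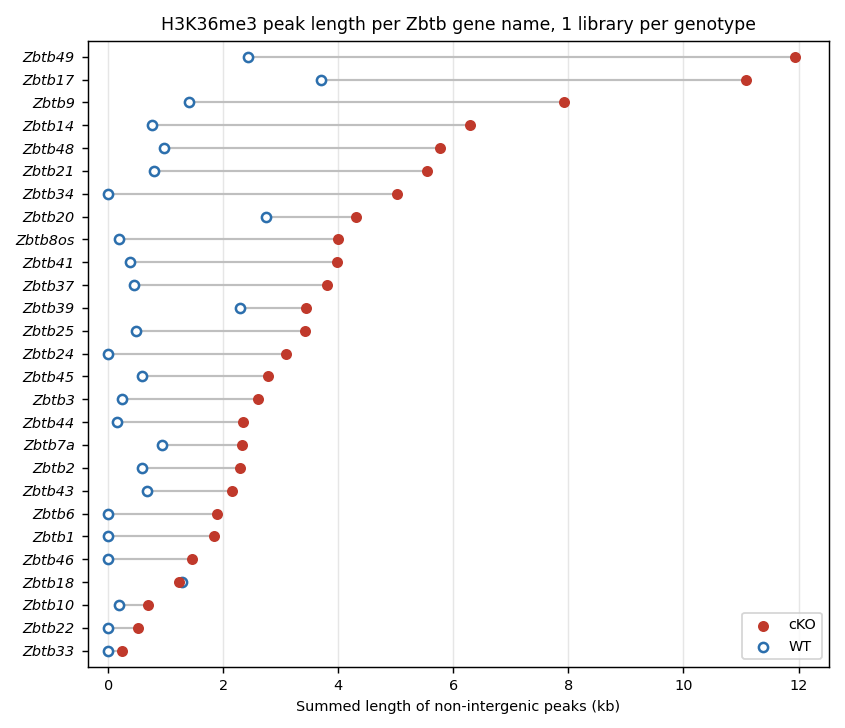
Summed length in kb (x axis) of the non-intergenic peaks under each of the 27 Zbtb names (rows, ordered by cKO), as filled points for cKO and open points for WT, 1 library each. Zbtb49 and Zbtb17 lead in cKO with 11940 and 11079 bp, and Zbtb18 is the row where the WT point lies to the right.

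Of the 27 names, 20 had a peak in both libraries, 7 in cKO alone and 0 in WT alone. A peak in cKO alone was found for 33.1% of all gene names with a peak in either list, and a peak in WT alone for 2.8%, so 7 of 27 is no larger than the background. By the rule of an at least 2-fold difference in summed length, 17 of the 20 shared names were longer in cKO and 0 shorter, against 89.9% and 0.546% of all 8054 names with a peak in both. The median ratio was 5.28 over the 20 members and 5.48 over the 8034 other names (quartiles 3.22 and 9.53). The members ran from 0.957 to 20.4 and so spread over much of the range of the other genes.

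**Figure D2:**
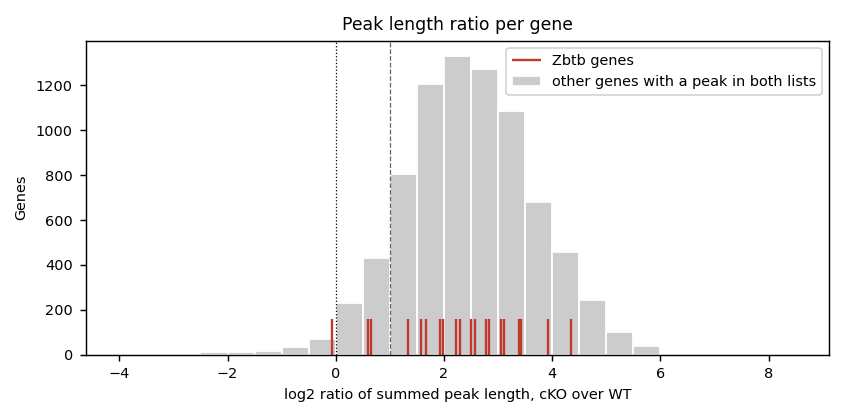
Number of other genes (y axis) by the log2 ratio of summed peak length, cKO over WT (x axis), for the 8034 names with a peak in both lists, with 1 red tick per Zbtb gene (20). The dotted line marks no difference and the dashed line a 2-fold one; 17 ticks lie to the right of the dashed line and 1 lies left of the dotted line.

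Of 4 members known from neural development, 3 were marked in both libraries, with ratios from 0.957 to 4.67, and 1 in neither. Zbtb18 encodes RP58, a repressor needed for the differentiation of cortical neurons in mice (chromosome 1, 177442351 to 177450764). It carried 1 peak of 1227 bp in cKO and 1 peak of 1282 bp in WT, the lowest ratio of the family at 0.957. Both peaks lay over the same exon, and the WT peak had the highest fold enrichment over input of any WT member peak, at 9.44 as the authors' caller gave it. Zbtb20, a regulator of hippocampal identity, had 9 peaks with 4315 bp in cKO and 5 peaks with 2737 bp in WT, a ratio of 1.58. Its RefSeq span is 758704 bp long, and all summits lay between 92.9 and 98.9% of that length in cKO and between 92.8 and 97.9% in WT. Only the 3′ end of this long gene was marked, which left 0.569% of the body covered in cKO and 0.361% in WT. Zbtb45, linked to glial differentiation, had 3 peaks with 2782 bp in cKO and 2 peaks with 596 bp in WT, a ratio of 4.67. Zbtb16, which encodes PLZF, a factor of stem and progenitor cells, had no peak over its 184429 bp in either library.

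Of the 3 genes of the Zbtb7 group, 1 was marked in both libraries and 2 in neither. Zbtb7a, the LRF repressor of blood and other lineages, had 1 peak of 2332 bp in cKO and 3 peaks with 929 bp in WT, a ratio of 2.51. The single cKO peak overlapped all 3 WT peaks, so cKO had fewer peaks and a larger covered length, and over the body 27.7% was covered in cKO and 8.60% in WT. Zbtb7b, the ThPOK factor of helper T cells, and Zbtb7c had no peak in either library, nor had Zbtb32. Zbtb46, known from classical dendritic cells, had 2 peaks with 1457 bp in cKO and none of that name in WT. Zbtb1, needed for lymphocyte development in mice, had 2 peaks with 1841 bp in cKO and none in WT. Zbtb17 encodes MIZ1, a partner of MYC that also acts in lymphocyte development. The gene (chromosome 4, 141444673 to 141467937) carried 10 peaks with 11079 bp in cKO and 6 peaks with 3695 bp in WT, a ratio of 3.00. Its longest cKO peak, 4881 bp, was also the longest of the family, and 4 of the 6 WT peaks lay inside it.

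Of 3 members known to bind methylated DNA, 1 had a peak in cKO and none had a peak in WT. Zbtb33 encodes Kaiso and is the family's X-linked member (X chromosome, 38189793 to 38197046). It had 1 peak of 241 bp in cKO and none in WT, the smallest summed length among the cKO members. Zbtb4 and Zbtb38, its relatives in binding methylated CpG, had no peak over the body in either library. Zbtb24 does not belong to that group. It is mutated in a human immunodeficiency syndrome with loss of DNA methylation at centromeric repeats, and had 5 peaks with 3093 bp in cKO and none in WT under its own name. The WT library nevertheless held 2 peaks within its body, both under the name of the neighbouring gene Mical1, so its absence from WT holds for the name and not for the gene.

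Both members known to bind telomeric repeats were marked in both libraries, at very different lengths. Zbtb48 encodes TZAP, which binds telomeric repeats in human cells, and had 5 peaks with 5767 bp in cKO and 2 peaks with 973 bp in WT, a ratio of 5.93. Zbtb10, which binds variant telomeric repeats in human cells, had 2 peaks with 691 bp in cKO and 1 peak of 181 bp in WT. Zbtb49 had the largest summed length of all members (chromosome 5, 38189732 to 38220499). It held 11 peaks with 11940 bp in cKO and 9 peaks with 2433 bp in WT, a ratio of 4.91. All 9 WT peaks were overlapped by cKO peaks, of which the longest measured 4789 and 2437 bp, against at most 538 bp in WT. Zbtb2, which binds unmethylated promoters in mouse embryonic stem cells, had 5 peaks with 2292 bp in cKO and 1 peak of 580 bp in WT. Zbtb21 had 5 peaks with 5536 bp in cKO and 3 peaks with 805 bp in WT, a ratio of 6.88. The protein made from Zbtb21 is known in human cells to bind that of Zbtb14, which is described with the gene names below.

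Other members shared the pattern of several short peaks in cKO and few in WT. Zbtb44 had 7 peaks with 2352 bp in cKO and 1 peak of 155 bp in WT, a ratio of 15.2. Zbtb41 had 8 peaks with 3974 bp in cKO and 2 peaks with 380 bp in WT, a ratio of 10.5. Zbtb37 had 8 peaks with 3807 bp in cKO and 2 peaks with 443 bp in WT, a ratio of 8.59. Introns held all cKO peaks of Zbtb44 and Zbtb41 and 4 of the 8 of Zbtb37. Zbtb25 had 8 peaks with 3416 bp in cKO and 2 peaks with 482 bp in WT, a ratio of 7.09. Zbtb43 had 2148 bp in cKO and 680 bp in WT, a ratio of 3.16, and its single WT peak was overlapped by a cKO peak that carried the name of Gm13536. Zbtb39 went the other way in number, with 1 peak of 3446 bp in cKO and 4 peaks with 2290 bp in WT. That ratio, 1.505, was the second lowest, and the cKO peak had the highest fold enrichment of any cKO member peak, at 14.8. The other members marked in cKO alone were Zbtb34 (10 peaks, 5020 bp), Zbtb6 (5 peaks, 1898 bp) and Zbtb22 (1 peak, 511 bp). Within either list the members' enrichment was ordinary, since their median fold over input equalled that of the list, 5.17 in cKO and 5.00 in WT.

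**Figure D3:**
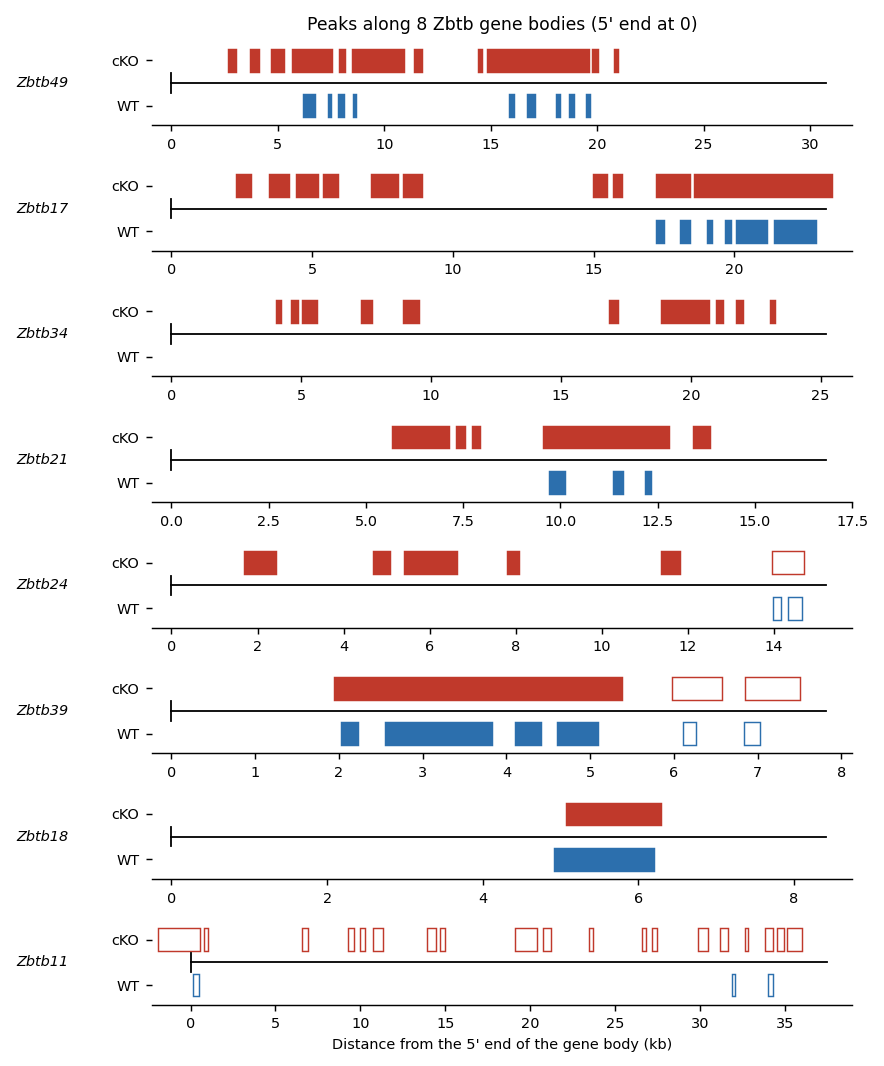
Peaks (boxes) along 8 Zbtb gene bodies (black lines), with distance in kb from the 5′ end of the RefSeq span on the x axis of each panel, cKO above and WT below the line. Filled boxes carry the name of the gene and open boxes that of a neighbour; all WT peaks of Zbtb49 overlap cKO peaks, Zbtb34 has no WT peak, and all boxes of Zbtb11 are open.

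Nearly all WT peaks of the family were found again in cKO. Of the 53 WT peaks, 51 shared 1 bp or more with the cKO list, and the remaining 2 lay in Zbtb20 and Zbtb37. Of the 142 cKO peaks, 32 shared bases with a WT peak and 110 did not. Peaks over 2 kb numbered 9 in cKO, in 7 members, and 0 in WT, where the longest measured 1641 bp. The cKO list was the larger, at 95750 peaks against 36820 in WT. Neither the overlaps nor the peaks over 2 kb were counted for other genes, so these counts do not set the family apart.

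The name of a peak did not always match the gene beneath it. Of the 195 Zbtb-named peaks of both lists, 36 lay outside the RefSeq body of the gene they were named for, 28 of 142 in cKO and 8 of 53 in WT, spread over 9 members. For Zbtb9 this held for every peak. Its 4 cKO peaks (7924 bp) and 3 WT peaks (1404 bp) all lay outside its body. The short body of Zbtb9 itself (3025 bp) held 2 cKO peaks and 1 WT peak, named for Ggnbp1. The name Zbtb14 held 6292 bp in cKO and 757 bp in WT, a ratio of 8.31. Under it, 6 of 10 cKO peaks (3160 bp) and 1 of 3 WT peaks (154 bp) lay in Epb41l3, a membrane skeleton gene. The nearest ended 94.6 kb before Zbtb14. Zbtb14 encodes a repressor first described at the Myc promoter, and within its own body it had 2923 bp in cKO and 603 bp in WT. The only WT peak named for Zbtb8os (196 bp) and 4 of its 9 cKO peaks (3994 bp for all 9) lay in Zbtb8a. Its ratio of 20.4, the highest of the 20, was thus drawn from both genes. By name, Zbtb3 had 5 peaks with 2607 bp in cKO and 1 peak of 243 bp in WT, a ratio of 10.7. That WT peak, like 2 of the cKO peaks, lay in Ttc9c. Of the 5 cKO peaks named for Zbtb6, 2 lay in Zbtb26. Counting only peaks within the body of the named gene, 26 members were marked in cKO and 17 in WT, with 83654 bp in cKO and 18825 bp in WT, a ratio of 4.44.

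Genes that named no peak were not all unmarked. Among the 15, 6 had cKO peaks over the body under a neighbour's name and 3 had WT peaks, while 9 had none in either library. Zbtb11, which is needed by mouse embryonic stem cells, held 19 cKO peaks over 23.4% of its body and 3 WT peaks over 2.14%, all named for the neighbouring ribosomal protein gene Rpl24. Of these, 1 cKO peak crossed the 5′ end of the span. Zbtb5 had 16.1% covered in cKO and 2.97% in WT, under the name Grhpr. Zbtb40 held 12 cKO peaks over 7.65% of its 69089 bp and no WT peak. Zbtb12 had 18.02% covered in cKO and 0 in WT, and Zbtb26 had 8.90% and 0. Zbtb8a had 4.78% covered in cKO and 0.803% in WT. The 23.4% of Zbtb11 in cKO exceeded the median of the 27 named members, which was 19.7% in cKO and 2.76% in WT.

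Measured on gene bodies, coverage was higher in cKO in 32 of the 42 Zbtb genes, lower in 1 (Zbtb18) and 0 in both libraries in 9. Any gene with a peak in cKO alone counts as higher here. Higher and lower coverage of any size was not counted for other genes, so this is no trait of the family. Of the 41 protein-coding Zbtb genes, 33 had a peak over the body in cKO (80.5%, exact Clopper-Pearson interval 65.1 to 91.2% at 95%, counting error only) and 23 in WT (56.1%, interval 39.7 to 71.5%). Among 21846 other protein-coding genes the shares were 43.6% in cKO and 31.3% in WT, below both intervals. These counts include genes marked only by peaks named for another gene, 7 of the Zbtb genes in cKO. By peaks of their own name within the body, 26 Zbtb genes were marked in cKO and 17 in WT. No such count was made for other genes. Without Zbtb8os, 32 of 40 were marked in cKO and 23 in WT by any peak. Median gene length was 18.3 kb in the family and 17.2 kb in the others. Where a gene was marked, however, the family was covered no more than others, with medians of 17.0% in cKO and 3.56% in WT, beside 21.3% and 4.50% in other marked genes. By a rule of 10 percentage points in genes of at least 5 kb, 17 of 35 Zbtb genes were higher in cKO, against 32.6% of all 16853 such genes, and 0 were lower, against 0.0%. Among genes marked in WT, which had to be covered to some extent, the median difference was 19.3 points in 23 Zbtb genes and 22.8 points in 6838 others.

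**Figure D4:**
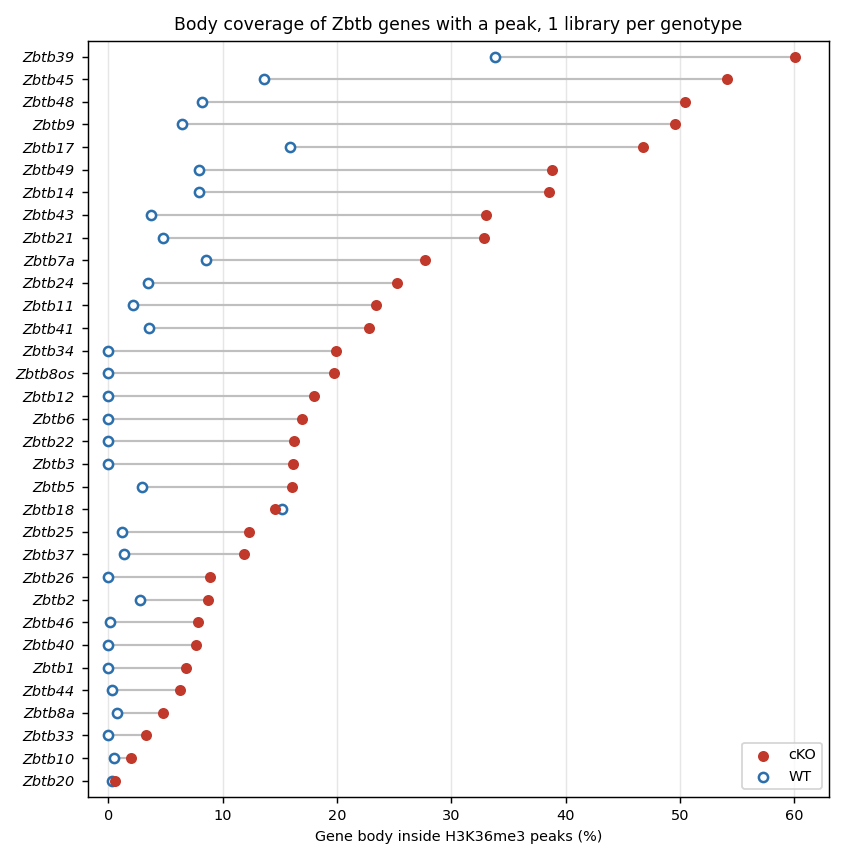
Share of the RefSeq gene body inside peaks in percent (x axis) for the 33 Zbtb genes with a peak in either library, as filled points for cKO and open points for WT. Zbtb39 is highest in both (60.1% in cKO, 33.8% in WT), and the points of Zbtb18 and Zbtb20 nearly coincide.

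The most densely covered bodies were short. Zbtb39 (7820 bp) had 60.1% covered in cKO and 33.8% in WT. Zbtb45 (4382 bp) had 54.1% in cKO and 13.6% in WT, and Zbtb48 (7903 bp) had 50.4% and 8.17%. Among longer genes, Zbtb17 reached 46.8% in cKO and 15.9% in WT, and Zbtb49 reached 38.8% and 7.91%. Body values include peaks of overlapping neighbours, as in Zbtb41, where 8 of 16 cKO peaks and 3 of 5 WT peaks were named for Aspm, and in Zbtb46, where 8 of 10 cKO peaks and the single WT peak carried other names.

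In both libraries the share of peaks at exons was higher in the family than in other genes. Exons held 25.9% of the 143 Zbtb-named peaks in cKO (interval 18.9 to 33.9%) and 43.4% of the 53 in WT (29.8 to 57.7%), beside 15.6% and 22.7% of the peaks of other names. Introns held 52.4% in cKO (43.9 to 60.9%) and 20.8% in WT (10.8 to 34.1%), beside 62.1% and 49.8%. Transcription termination sites held 18.2% in cKO and 26.4% in WT, and promoter-annotated peaks 2.80% and 9.43%. These classes refer to the ends and starts of any annotated transcript, not to those of the gene body. The promoter-annotated WT peaks of Zbtb17 lay 18.06 to 21.17 kb into its body of 23.265 kb. In cKO a termination-site peak of Zbtb37 began 2.16 kb from the 5′ end. Intergenic peaks numbered 1 in cKO, near Zbtb3, and 0 in WT. Peaks of 1 gene are not independent, so these intervals are narrower than the true uncertainty, but no single member gave more than 5 of the 37 exon peaks in cKO or 4 of the 23 in WT. Within the bodies of the named genes alone, exons held 22.8% of 114 peaks in cKO and 44.4% of 45 in WT.

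Most of these exons were the last of their annotated transcript, though members and other genes were not matched for exon number. Such a transcript can be shorter than the gene. WT peaks of Zbtb49 in exon 3 of 3 lay 7.355 to 8.12 kb into a body of 30.768 kb. In cKO 26 of 37 exon peaks (70.3%, interval 53.0 to 84.1%) and in WT 18 of 23 (78.3%, interval 56.3 to 92.5%) lay in a final exon, beside 48.7% and 41.5% of the exon peaks of other genes. The final exon peaks within the gene's own body came from 14 members in cKO and 9 in WT. They included Zbtb39 (exon 2 of 2), Zbtb18 (exon 1 of 1), Zbtb14 and Zbtb21 (exon 3 of 3) in both libraries, and Zbtb1 (exon 2 of 2) in cKO alone.

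Along the body the mark lay toward the 3′ end in both libraries. For genes of known strand the body was divided into 5 bins of equal length, counted from the 5′ end, and each gene weighed the same. Bin 1 held 4.02% in cKO (30 genes) and 2.23% in WT (21 genes), and bin 5 held 33.8% and 51.5%. In other protein-coding genes bin 5 held 39.6% in cKO and 39.8% in WT. The family thus leaned slightly less to the 3′ end than other genes in cKO and further in WT, as a description of these libraries without a test. These values count every peak over a body, also those named for a neighbour. In WT all peaks of Zbtb5, Zbtb8a, Zbtb9, Zbtb24 and Zbtb46 carried other names, with first summits at 82.1% of the body or later. Those of Zbtb11 did too, with a first summit at 0.518%. The part of such peaks in the lean was not tested. Every summit lay past the midpoint of the body in 15 of 30 marked genes in cKO and in 16 of 21 in WT. The median first summit lay at 51.1% of the body in cKO and at 74.2% in WT. A gene with fewer peaks has fewer chances of an early summit, and WT had fewer peaks. The 30 and 21 genes are also not the same set. Summits were not measured in this way for other genes, so a shift in position was not tested. In Zbtb17 summits ran from 11.4 to 93.8% of the body in cKO, with a median of 35.02%, and from 74.2 to 93.8% in WT. Next to the start regions printed above, the nearest downstream peak began 2289 bp from the start of Zbtb17 in cKO and 17221 bp in WT. For Zbtb39 these distances were 1938 bp in cKO and 2025 bp in WT, and for Zbtb49 2599 bp and 6143 bp.

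**Figure D5:**
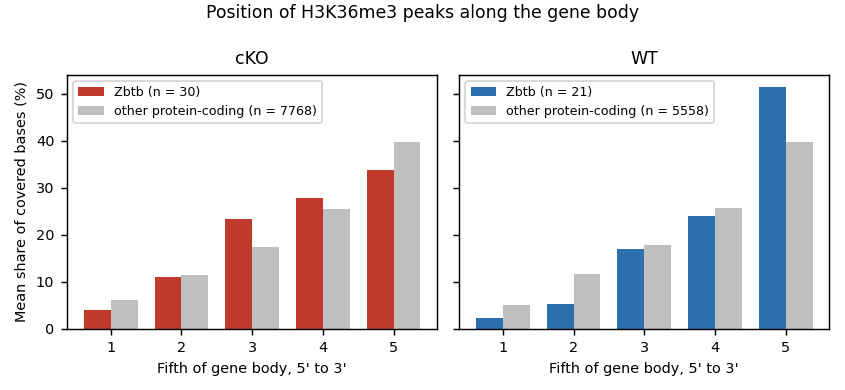
Mean share of covered bases in percent (y axis) in 5 equal bins of the gene body from 5′ to 3′ (x axis), cKO left and WT right, for Zbtb genes (coloured) and other protein-coding genes (grey), each gene weighing the same. Bin 5 of the Zbtb genes reaches 33.8% in cKO and 51.5% in WT.

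The lengths were computed again with shorter cKO lists. With the cKO peaks of highest -log10 q kept up to the number of WT peaks, 22 members were marked in cKO, and the ratio of summed length was 3.17, beside 3.34 for other genes. Kept up to the covered length of WT, which sets the overall ratio near 1 by construction, 9 members were marked and the ratio was 1.25, beside 1.01 for other genes. Under that limit 7 members were longer and 14 shorter in cKO, and 12 that had a WT peak held none. Zbtb49 was one of these, with 0 bp in cKO and 2433 bp in WT. Zbtb39 stayed longer with 3446 bp in cKO and 2290 bp in WT, as did Zbtb17 with 4881 and 3695 bp and Zbtb21 with 3243 and 805 bp. With all peaks counted, 19 of the 20 members with a peak in both lists were longer in cKO and 1 was shorter.

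Genes related to the family, and those of its known partners, were covered more in cKO where they were marked. By the rule of 10 points, met by 32.6% of all genes of at least 5 kb, the lists below were not set apart by any test. Of 8 BTB zinc finger genes under other names, 6 had a peak over the body in cKO and 5 in WT, and coverage was at least 10 points higher in cKO in 6 of 8 and lower in 0, with a median difference of 22.1 points. Patz1 had 73.1% covered in cKO and 43.0% in WT, and Mynn had 44.7% and 12.5%, while Bcl6, the repressor of germinal centre B cells, and its paralog Bcl6b had no peak in either. Of 17 corepressor genes, 17 were marked in cKO and 15 in WT, and cKO exceeded WT by the same rule in 12 of 16, with a median difference of 22.8 points. Ncor1 had 29.8% in cKO and 4.93% in WT, Hdac3, its deacetylase, 60.7% and 9.83%, and Bcor 6.48% and 0.807%. Of 10 genes of the CUL3 ligase and its adaptors, 9 were marked in cKO and 8 in WT, and 6 of 9 passed the rule, with a median of 26.01 points. Cul3 itself had 6.21% in cKO and no WT peak. By gene name, Gps2, a subunit of the NCOR complex, was at least 2-fold shorter in cKO, with 230 bp in cKO and 1085 bp in WT, although its body was covered at 56.2% in cKO and 33.3% in WT. The list medians were taken over all genes of a list, including unmarked ones such as Bcl6, Bcl6b and Klhl13. The 22.8 points of other genes marked in WT leave unmarked genes out, so these medians are not like for like. The median over all 21887 protein-coding genes, most of them unmarked, was 0.0 points.

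The labelled tissue was checked on marker genes. Of 8 neural progenitor genes, 7 had a peak over the body in cKO and 6 in WT, including Pax6, Nes, Vim and Notch1, and Fabp7 had none. The forebrain genes Emx1, Emx2 and Lhx2 were marked in both libraries. All 4 endothelial and all 4 meningeal genes were at 0 in both. Of 5 blood genes, 4 were at 0 in both, and Alas2 had 1.00% of its body covered in cKO and 0 in WT. By name, Alas2 carried 6 cKO peaks with 1773 bp and none in WT. Of 5 neuron genes, 3 had a peak over the body in cKO and 2 in WT, and Dcx and Neurod6 were at 0. By name, 3 carried a peak in each library, as the WT peak named for Stmn2 lay outside its body. Summed peak length under neuron names ran from 0 to 7272 bp in cKO and from 0 to 2892 bp in WT over 5 genes, and the part of differing neuron numbers in the results was not tested.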

How the data were processed

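H3K36me3 ChIP-seq was processed by the authors with Bowtie2 2.2.9 (mm10), per the submitters' processing notes, and MACS 2.1.1.20160309, per the file headers, as narrow peaks at a p cutoff of 1.00e-05. The notes name MACS2 2.1.0. The header file names mark removed duplicates and unique alignments. The fragment length was 185 bp in cKO and 152 bp in WT, per the file headers. Deposited per peak were length, pileup signal, fold enrichment over local input and -log10 of p and q. The authors' pileup, fold and -log10 values were compared only within a list. The exceptions are the alternatives that cut both lists at the same -log10 q or fold, although these scales can differ between libraries. A second deposited table gave each peak a class and gene name; its starts were 1 bp higher, and peak-list positions are used. Narrow calling of a broad mark splits domains, so peak number can be lower where a domain is longer. The sources used here do not say if inputs were pooled.

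Peak number and length were summed per gene name, intergenic peaks left out. Body coverage used RefSeq spans (GRCm38.p6, not screened further), overlap of at least 1 bp, strand from the promoter table. Lists were compared by a fixed 2-fold rule or 10 points (genes of at least 5 kb). Interval functions were tested on simulated data. Python 3.11.15, pandas 2.3.3 and scipy 1.17.1 were used. Members and lists were chosen with earlier results of these data known. Genes named in full were the 10 longest in cKO, the 5 highest and 5 lowest ratios, names in 1 list alone or neither, and role groups. The alternatives tried were peak thresholds, list size, joined peaks, the link of peak to gene and the classes counted.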

Additional observations from a re-analysis of the deposited data

How the results depend on the processing

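No paired analysis was possible because each genotype has 1 ChIP library, and for the same reason no library could be left out. Among members with a peak in both lists, 0 were at least 2-fold shorter in cKO under every alternative run, and members marked in WT numbered 17 to 20. That count leaves out members that lost all cKO peaks, 2 at the number of WT peaks and 12 at the WT covered length. When the strongest cKO peaks were kept up to the covered length of WT, 9 members were marked in cKO and 4 were at least 2-fold longer. The ratio of summed length, 4.80 with all peaks, was 6.03 at a -log10 q of at least 5, 4.58 at a fold of at least 4, 3.17 with the cKO list reduced to the number of WT peaks and 1.25 at the WT covered length. It was 4.88 for peaks over the RefSeq body, 4.81 with intergenic peaks, 5.03 without promoter-annotated peaks and 4.66 without Zbtb8os, an alternative chosen after seeing the data. The median difference in body coverage, 19.1 points, was 18.5, 17.0, 7.47 and 0 points under the same 4 limits on peaks, in that order, 29.6 with peaks within 3 kb joined and 18.05 without Zbtb8os. The number of tags limits which short peaks were called, and absence of a peak is not absence of the mark.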

Other observations

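Several Zbtb genes neighbour each other, and neighbours differed in what they carried. Zbtb34 and Zbtb43 lie 18.96 kb apart on chromosome 2 on the same strand. Zbtb34 had 19.9% of its body covered in cKO and 0 in WT, and Zbtb43 had 33.0% in cKO and 3.72% in WT. All 10 cKO peaks over Zbtb34 carried its own name. Of the 7 over Zbtb43, 3 were named for Gm13536, and those of its own name summed to 2148 bp of the 6041 bp covered. The order of these 2 genes in cKO thus depends on peaks of another name. Zbtb6 and Zbtb26, 1.25 kb apart on the same chromosome, had 17.0% and 8.90% covered in cKO and 0 in WT. Zbtb25 and Zbtb1 point away from each other on chromosome 12, with spans that overlap at their starts. Zbtb25 had 12.3% covered in cKO and 1.19% in WT, and Zbtb1 had 6.84% in cKO and 0 in WT. Of the 3 neighbours on chromosome 4, Zbtb8os had 19.7% covered in cKO and 0 in WT, Zbtb8a had 4.78% and 0.803%, and Zbtb8b had no peak in either library.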
